A study of Mus musculus with 27 samples.

Results

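The response of CB2-/- microglia to CpG was read from 6 of the series' 27 libraries, chosen by their labels: 3 treated with CpG against 3 left unstimulated, all of the same genotype. It covers every tested gene, 14668 of the 23995 listed. The microglia were of neonatal mice, grown in mixed cortical glial culture, shaken off, re-seeded and rested before treatment. The label CB2-/- goes with the strain B6.Cg-Cnr2tm1Zim, in which Cnr2, the gene of the cannabinoid receptor CB2, was targeted; treated and control cells both carry that allele in every cell. CpG was given at 1 nmol/ml for 16 h. For contrast there are 3 CB2-/- libraries treated for 16 h with PolyI:C, 3 with LPS (100 ng/ml) and interferon-γ (20 ng/ml), and wild-type C57BL/6J libraries, 3 unstimulated and 3 with CpG. A further 3 unstimulated wild-type libraries served only in the fit. The study asked whether CB2 takes part in microglial activation through Toll-like receptors. Whether replicates were separate animals or cultures is not given in the labels, so the p-values reflect nothing but the spread between libraries, which may be technical. That spread was estimated from all 27 libraries together, wild type and the other treatments included.

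CpG oligodeoxynucleotides are short DNAs with unmethylated CG steps, as found in bacterial DNA. They are sensed inside endosomes by Toll-like receptor 9 (TLR9), which is carried there by UNC93B1 and signals through the adaptor MyD88. The MyD88 arm leads through IRAK kinases and TRAF6 to the transcription factor NF-κB and to MAP kinases, which switch on cytokine genes, and in some cells through IRF7 to type I interferon. PolyI:C is sensed by TLR3 through the adaptor TRIF, and LPS by TLR4 through both adaptors.

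Values are the authors' normalised counts per gene, listed in the order of libraries 1, 2 and 3 of a group. Changes are log2 fold changes ± standard error (SE) of log2(value + 1), in which changes of low genes come out too small, and were tested with limma over all tested genes with Benjamini-Hochberg adjustment. A gene is said to rise or fall where the adjusted p was under 0.05. With normalised values the read depth is unknown, so precision rests on the replicates alone. Fewer cells of a type and less RNA per cell cannot be told apart in these bulk samples.

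The 6 libraries held summed values of 6341299 to 8122788 and 15941 to 20537 genes above 0. All 12 microglia and macrophage markers were tested, and their summed level was 88879 to 95518 in the unstimulated libraries and 66192 to 67910 with CpG. Astrocyte markers summed to 4097 to 4877 without CpG and 2659 to 3085 with it, mostly from Glul, which microglia also express. Markers of monocytes and neutrophils summed to 22.7 to 48.1 and 56.9 to 84.1, with Ly6c2, a defining monocyte marker, listed at 0 in all 6 libraries. Of the same list, S100a8 was at 19.6 to 27.7 without CpG and 41.2 to 70.2 with it, and Ccr2 at 1.51 to 6.03 and 2.87 to 14.97; their part in the results was not tested. The RNAs Gm19220, Gm26822 and Grip2 together took 0.0741 to 20.3% of the values in unstimulated libraries and 2.03 to 9.73% with CpG, and the part of such shares in the results was not tested. Cnr2 itself stood at 317, 411 and 454 without stimulus and 287, 301 and 319.5 with CpG (-0.37 ± 0.54, adjusted p = 0.782). A single value per gene cannot show a deletion of part of it, so the genotype rests on the labels.

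CpG changed the transcriptome in both directions to a like extent. Of 14668 tested genes, 1000 rose (6.82%) and 1092 fell (7.44%), so 14.3% changed in all. A log2 change of 1 was reached by 480 of the risers and 568 of the fallers, and a change of 4 by 34 risers and 20 fallers. Calls were more frequent at high levels, with 43.4% of the 1270 genes at a mean of 1000 or more called and 2.21% of the 3033 genes below 10. Protein-coding genes gave 927 risers and 1056 fallers of 12649, and long intergenic noncoding RNAs gave 23 risers and 6 fallers of 392. Among the 2092 called genes, 2082 had CpG and unstimulated libraries that did not overlap, as did 5684 of all tested genes. The median SD between CpG libraries was 0.125 on the log2 scale and that between unstimulated libraries 0.146, while the wild-type groups had 0.274 and 0.222 (7857 genes with a mean of at least 100). A single spread estimate per gene, from all 27 libraries, was shared by all groups in these counts and in the SEs given. In a fit of the CB2-/- libraries alone the SE of Fn1 was 0.12 in place of 0.72. That of Ccl5 was 0.091 in place of 0.099. The fit of the CB2-/- libraries alone called 1656 higher and 1685 lower, 22.8% of the tested genes.

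**Figure D1:**
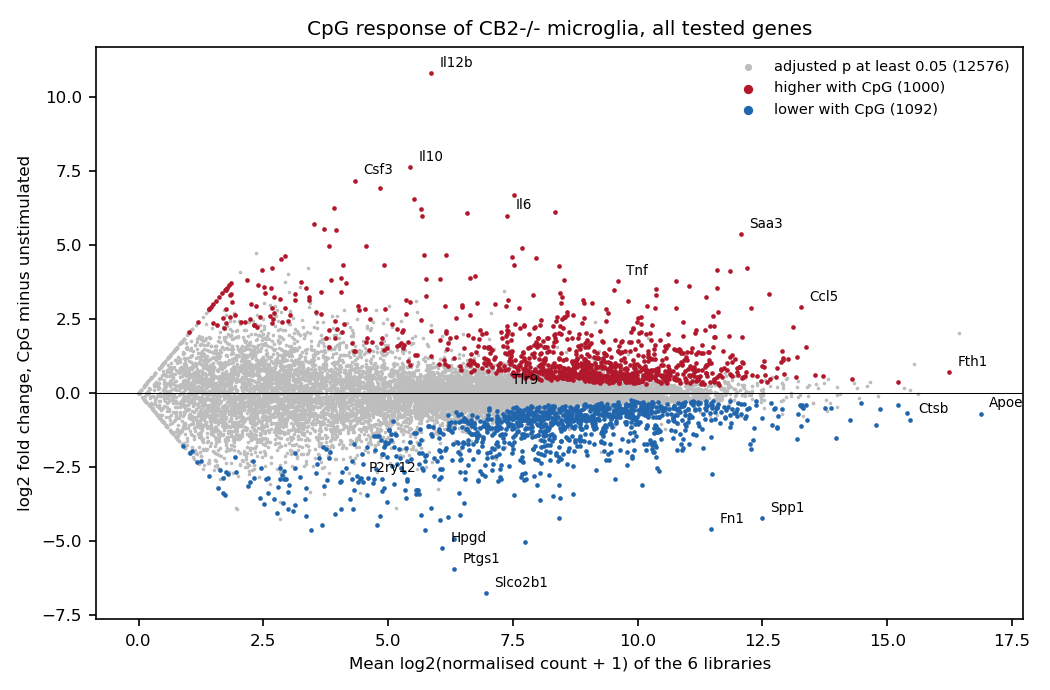
Mean of log2(normalised count + 1) over the 6 libraries (x axis) against the log2 fold change of CpG over unstimulated CB2-/- microglia (y axis), one point per tested gene. The 1000 genes that rose are red, the 1092 that fell blue and all others grey; Il12b stands at the top at 10.80 and Slco2b1 at the bottom at -6.76.

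The 3 largest increases were those of the cytokine genes Il12b, Il10 and Csf3, and Il6 was also among the 15 largest. The rule that chose these 15 genes, and the 15 with the largest decrease, required groups that do not overlap, so their separation is part of the choice. Il12b, the p40 subunit shared by interleukin-12 and interleukin-23 (chromosome 11, 44400063 to 44414033, GRCm38), held 0.746, 0.480 and 0 normalised counts in the unstimulated libraries and 2485, 2474 and 2374 with CpG. The 3 CpG libraries were close to each other (10.80 ± 0.59, adjusted p = 1.58e-12). Il10, the main anti-inflammatory cytokine of macrophages, rose from 0, 6.72 and 2.80 to 631, 609 and 593 (7.63 ± 0.77). Csf3, the granulocyte colony-stimulating factor, went from 0, 0.960 and 1.40 to 247, 244 and 229 (7.17 ± 0.62). Il6, the interleukin-6 gene (chromosome 5, 30013114 to 30019981), rose from a low but measurable level, 16.2, 34.3 and 14.4, to 1445, 1387 and 1169 (5.98 ± 0.67).

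Other strong risers act in metabolism, signalling and the extracellular matrix. Slc13a3, a sodium-coupled dicarboxylate transporter, was at 9.88, 21.6 and 23.4 and reached 1837, 1735 and 2038 (6.68 ± 0.50). Cd300e, an activating receptor of myeloid cells, rose from 4.48, 4.32 and 2.80 to 438, 494 and 400.3 (6.53 ± 0.61), and Dusp2, a phosphatase that switches off MAP kinases, from 5.66, 7.28 and 2.65 to 483, 372 and 449.9 (6.21 ± 0.43). Matrix genes were among them as well. Lox, which cross-links collagen, rose from 31.6, 38.8 and 46.2 to 2590.3, 2737 and 2743 (6.09 ± 0.70), Adamts4, an aggrecan-cleaving protease, from 13.3, 9.50 and 9.71 to 761, 796 and 798 (6.07 ± 0.66), and the hyaluronan synthase Has1 by 5.50. Saa3, an acute-phase serum amyloid, was the most abundant of the set at 26163, 26441 and 30146 with CpG against 574, 816 and 633 without (5.37 ± 0.24). Zfp811 (a zinc finger gene, 6.93), Shisa3 (6.24), the liprin gene Ppfia3 (5.96) and Heatr9 (4.94) complete the 15 largest increases, whose largest adjusted p was 1.21e-06. In the authors' batch-corrected table the log2 change was smaller by more than 1.5 times for Il12b (6.85), Csf3 (4.31), Dusp2 (4.08), Zfp811 (4.21), Shisa3 (3.81), Has1 (3.31) and Heatr9 (3.29), all still called.

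The largest decrease was that of Slco2b1. This organic anion transporter, typical of resting microglia, stood at 1283, 1201 and 1404 without CpG and at 5.13, 32.1 and 7.36 with it, the second CpG library being the highest of the 3 (-6.76 ± 0.76, adjusted p = 3.39e-07). Ptgs1, the constitutive cyclooxygenase, fell from 556, 636 and 715 to 14.9, 15.3 and 3.05 (-5.96 ± 0.71). Hpgd, which inactivates prostaglandins, fell from 488, 434 and 336 to 10.2, 4.92 and 19.2 (-5.23 ± 0.36), and Rgs2, a brake on G protein signalling, from 1253, 1187 and 1204 to 43.3, 38.5 and 28.6 (-5.03 ± 0.29). Spp1, the secreted protein osteopontin, was among the most abundant transcripts before CpG, at 27078, 24665 and 23202, and dropped to 1387, 1321 and 1265 (-4.23 ± 0.44). Fn1, which encodes fibronectin, was at 13453, 13773 and 14682 and then 477, 687 and 577 (-4.60 ± 0.72). Fgf2, a fibroblast growth factor, was at 463, 187 and 219, with the first library above the others, and fell to 14.3, 12.3 and 5.14 (-4.63 ± 0.98).

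The remaining members of the 15 largest decreases were Rnase4 (-4.95), a secreted ribonuclease, Rps26-ps1 (-4.46), a pseudogene that may share reads with its parent gene, Sirpb1c (-4.28), Rasgrp3 (-4.21), a Ras exchange factor, Acot1 (-4.15), an acyl-CoA thioesterase, Thbd (-4.13), the thrombin receptor thrombomodulin, Tpbgl (-4.12) and the transcription factor Sox4 (-4.23, adjusted p = 0.0422). The Sox4 call was lost when any 1 of the 6 libraries was left out, with adjusted p from 0.0833 to 0.111, and under other variance models, and that of Acot1 at a pseudocount of 0.1 (adjusted p = 0.0691).

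**Figure D2:**
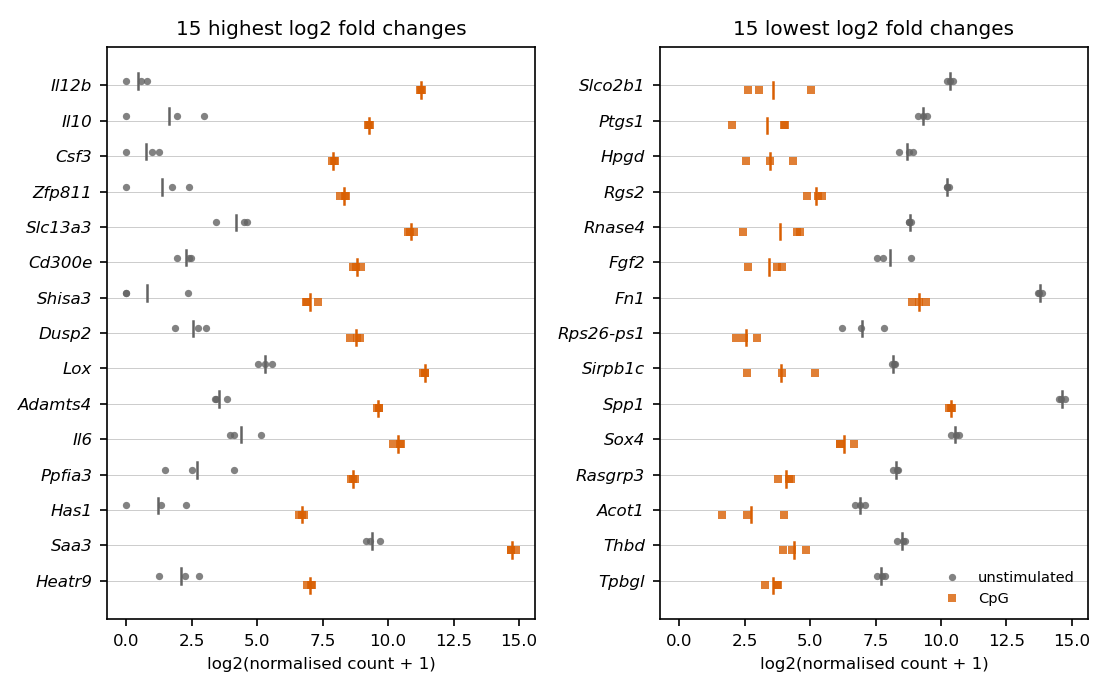
Log2(normalised count + 1) in each library (x axis) for the 15 genes with the largest increase and the 15 with the largest decrease (y axis), unstimulated and CpG-treated, with the group means as short lines. The 3 CpG points of Il12b lie between 2374 and 2485 normalised counts and its unstimulated points below 1; all 30 genes were chosen for groups that do not overlap.

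In absolute level the gains were led by Fth1, the ferritin heavy chain that stores iron, from 55143, 64294 and 63638 to 96622, 96291 and 105613. Saa3, the chemokine Ccl5 and the inducible cyclooxygenase Ptgs2 followed, with Ccl5 going from 3124, 3999 and 3908 to 25154, 26538 and 29738 (2.89 ± 0.10) and Ptgs2 from 1059, 1055 and 1111 to 20946, 20970.5 and 18706 (4.23 ± 0.50). Each of these genes had its 3 CpG libraries above its 3 unstimulated ones. Losses in level were led by Apoe, the lipid carrier apolipoprotein E, which was the most abundant of them at 144382, 161687 and 155728 and fell to 92546, 92568 and 98767 (-0.70 ± 0.16). The lysosomal protease gene Ctsb came next, from 61326, 63179 and 60610.1 to 33658, 32415 and 32616 (-0.91 ± 0.11). The call of Fth1 (0.71 ± 0.13) was lost with quantile scaling, at an adjusted p of 0.238.

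The sensing pathway itself moved in parts. Tlr9, the CpG receptor, was at 179.8, 155 and 133 without and 156, 169 and 167 with CpG, overlapping groups with no call (0.08 ± 0.21, adjusted p = 0.892). Of 35 tested genes of TLR9 sensing and MyD88 signalling, 10 rose and 8 fell, with a median log2 fold change of 0.19 beside 0.00 over all genes. Irak3, the inactive IRAK that damps the pathway, rose most clearly among signalling genes, from 265, 289 and 245 to 1658, 1759 and 1815 (2.71 ± 0.14). Unc93b1, the chaperone of endosomal receptors, went from 3345, 3845 and 3829.8 to 4995, 5031 and 5914 (0.53 ± 0.12), and the adaptor Myd88 from 572, 671 and 566 to 859, 825 and 852 (0.49 ± 0.11), both in non-overlapping groups. The receptors divided. Tlr1, a cell-surface receptor that pairs with TLR2 for lipopeptides, rose from 164, 160.4 and 257 to 1541, 1591 and 1526 (3.03 ± 0.15), whereas Tlr13, which senses bacterial ribosomal RNA, fell from 2672, 2688 and 2367 to 606, 744 and 588 (-2.00 ± 0.19). Tlr4 (-1.29), Tlr8 (-1.23) and Tlr7 (-0.82) fell as well.

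NF-κB genes and their feedback regulators rose as a block: 21 of 26 tested members passed the threshold, all upward, with a median log2 fold change of 1.61. Nfkbia, which encodes the inhibitor IκBα, rose from 999, 1101 and 1249 to 4958, 4642 and 4878 (2.12 ± 0.09, adjusted p = 2.38e-14). Nfkbiz, the nuclear IκBζ needed for secondary cytokine genes, went from 379, 389 and 396 to 4620.4, 4255 and 4439.6 (3.51 ± 0.13). Every CpG library of both genes exceeded every unstimulated one by far. Traf1, an adaptor of TNF receptors, rose from 198, 264 and 205 to 2475, 2555 and 2365 (3.48 ± 0.29), Socs3, a brake on STAT3 signalling, from 1101, 1355 and 1147 to 7149.5, 6771 and 7532 (2.58 ± 0.23), and the ubiquitin-editing enzyme gene Tnfaip3 from 1015, 927 and 998 to 3837, 3819.5 and 3565 (1.93 ± 0.21). The subunit genes Nfkb2 (2.00), Nfkb1 (1.47), Relb (1.14) and Rel (1.14) rose, and Rela had 0.30 at an adjusted p of 0.0586. The others that missed the threshold were Socs1 (1.47), Cish (-0.11), Dusp4 (-0.18) and Dusp5 (-0.22).

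The promoters of some of these genes carry letters of the NF-κB motif, and the 4 sequences below are shown because their genes rose and hold such a match just before the gene start. The search covered the 250 bases before the start in RefSeq (GRCm38.p6), for GGG, any NN and TTTCC in a row on both strands, with matches in capitals and each promoter written 5′ to 3′ on its gene's strand. The lines give Il6 (chr5:30012864-30013113, plus strand), Cxcl1 (chr5:90890995-90891244, plus), Nfkbia (chr12:55492648-55492897, minus) and Tnfaip3 (chr10:19015411-19015660, minus).
Il6: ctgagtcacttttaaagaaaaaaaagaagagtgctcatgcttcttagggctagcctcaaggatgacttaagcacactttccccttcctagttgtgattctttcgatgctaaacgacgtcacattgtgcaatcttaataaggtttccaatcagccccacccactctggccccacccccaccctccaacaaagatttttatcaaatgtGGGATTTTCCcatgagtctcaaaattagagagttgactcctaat
Cxcl1: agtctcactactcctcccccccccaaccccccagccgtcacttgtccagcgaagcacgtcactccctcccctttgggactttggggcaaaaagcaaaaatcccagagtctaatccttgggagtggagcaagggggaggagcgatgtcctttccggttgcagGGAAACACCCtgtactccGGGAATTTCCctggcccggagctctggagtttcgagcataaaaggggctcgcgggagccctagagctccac
Nfkbia: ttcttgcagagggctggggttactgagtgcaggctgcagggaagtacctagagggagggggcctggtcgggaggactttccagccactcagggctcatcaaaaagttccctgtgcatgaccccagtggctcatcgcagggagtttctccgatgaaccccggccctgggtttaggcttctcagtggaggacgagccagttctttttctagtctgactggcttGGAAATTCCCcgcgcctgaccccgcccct
Tnfaip3: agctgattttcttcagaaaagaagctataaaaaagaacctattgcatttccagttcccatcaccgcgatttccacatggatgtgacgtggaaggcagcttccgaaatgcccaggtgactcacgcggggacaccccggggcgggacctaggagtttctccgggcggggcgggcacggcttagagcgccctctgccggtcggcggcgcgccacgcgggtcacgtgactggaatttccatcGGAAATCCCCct
The match ended 34 bases before the gene start in Il6, 19 in Nfkbia and 2 in Tnfaip3, and Cxcl1 held 2 matches, ending 79 and 61 bases before it. Among genes with a promoter in the table, 24 of 760 risers (3.16%), 11 of 836 fallers (1.32%) and 182 of 10259 tested genes (1.77%) had a match. In the NF-κB list it was 5 of 22 (22.7%), and the Il12b window and a second Tnfaip3 window (chr10:19011964-19012213, minus) held none, which says only that these letters are not in them. The interferon-stimulated response element (GAAA, any NN, GAAA) was found in 4.08% of risers, 5.26% of fallers and 3.54% of tested genes, and the AP-1 motif TGANTCA in 6.18, 7.30 and 5.64%. The cyclic AMP element TGACGTCA gave 2.89, 1.79 and 3.03%, and the sterol element TCACNCCAC gave 1.45, 1.56 and 1.21%. A match is a description of letters and not a bound site.

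Proinflammatory cytokines rose in 10 of 16 tested members, and 1, the interleukin-6 family cytokine Osm (-1.12), fell; the median was 3.19. Tnf, the tumour necrosis factor gene, went from 228, 226 and 179 to 2976, 2919 and 2709 (3.77 ± 0.21). Il1b, interleukin-1β, rose from 2063, 2189.5 and 1773 to 20585, 20620.3 and 19408 (3.33 ± 0.34), and its relative Il1a from 808, 749 and 649 to 13653, 13443 and 11669 (4.14 ± 0.85). The 3 genes had clearly separate groups. Ebi3 and Il27, whose products pair as interleukin-27, rose by 3.04 and 4.95. Csf2 was listed at 0 in all unstimulated libraries and at 4, 14.8 and 3.66 with CpG. Il18 (-0.65), Il15 (-0.01), Lif (0.46), Il33 (-0.88) and Csf1 (-0.06) did not pass.

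Genes that restrain inflammation moved in both directions. Of 14 tested genes of the interleukin-10 axis and of interleukin-1 inhibition, 6 rose and 2 fell, with a median of 0.21. Il1rn, the natural interleukin-1 receptor antagonist, rose from 1786, 1953 and 1776 to 13729, 12541 and 13421 (2.85 ± 0.18). The receptor chain gene Il10ra went from 916, 996 and 1015 to 1695, 1787 and 1521 (0.77 ± 0.11), and Il10rb fell by a small amount (-0.35 ± 0.08). Bcl3, an IκB family member that limits cytokine transcription, rose by 1.76. Il19, an interleukin-10 family cytokine, was listed at 0 without stimulus and at 9.93, 8.64 and 6.68 with CpG; its call was lost at a pseudocount of 10, where the adjusted p was 0.24. Without unstimulated library 2 or 3 or CpG library 2 or 3, only 1 member of the list fell.

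Several chemokines that draw neutrophils and monocytes rose, and the interferon-induced Cxcl9, Cxcl10 and Cxcl11 did not pass in the fit of all 27 libraries. In the CC list 4 of 10 rose and 1 fell (median 0.41), and in the CXC list 3 of 11 rose and 1 fell (median 0.64). With only the CB2-/- libraries in the fit 5 rose and 2 fell in the CC list, and 6 rose and 1 fell in the CXC list. Ccl3 rose from 919.7, 918 and 835 to 16192, 16169 and 13855 (4.11 ± 0.25) and Ccl4 from 477, 472 and 466 to 6883, 5985 and 6681 (3.78 ± 0.21). Cxcl1 and Cxcl2, ligands of the neutrophil receptor CXCR2, went from 27.8, 48.3 and 35.9 to 1163, 1198 and 1004 (4.90 ± 0.55) and from 601, 597 and 595 to 8000.1, 7583 and 6433 (3.61 ± 0.51). In these 4 genes the CpG libraries all stood above the unstimulated ones. Cxcl10, induced by interferons, was at 389, 354 and 319 and 599, 527 and 558. The groups did not overlap, but the difference did not pass (0.67 ± 0.41, adjusted p = 0.366). Cxcl10 was called upward with only the CB2-/- libraries in the fit, where its SE was 0.078. The same held with only the 6 compared libraries, with library weights and in the authors' batch-corrected table. Cxcl9 (0.08) and Cxcl11 (-0.42), also interferon targets, and the monocyte attractant Ccl2 (-0.21) did not pass either. Cxcl14 fell from 2928, 3329 and 3369.7 to 354, 385 and 364 (-3.12 ± 0.29) and Ccl6 fell as well (-2.73).

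Receptors for attractants changed in opposite directions, with 4 of 16 higher and 8 lower (median -0.87). The formyl peptide receptor gene Fpr1 rose from 311, 324 and 287 to 2565, 2543 and 2789 (3.10 ± 0.15) and Fpr2 from 146, 179.6 and 141 to 979, 929 and 819.7 (2.54 ± 0.16). Ccr7, the lymph node homing receptor, was low without stimulus at 0.746, 3.84 and 5.59 and reached 67.1, 75.7 and 86.1 (4.33 ± 0.90); at a pseudocount of 0.1 its adjusted p was 0.0509. Cx3cr1, the fractalkine receptor of resting microglia, fell from 1655, 1699 and 1930.4 to 405, 459 and 451 (-2.00 ± 0.19). Cxcr4, the receptor for Cxcl12, fell from 1195, 1444 and 1452 to 112, 129.8 and 137 (-3.42 ± 0.41), and the oxysterol receptor gene Gpr183 fell too (-3.29). The complement peptide receptors C5ar1 (-0.99) and C5ar2 (-2.58) also fell.

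Among 33 tested genes of the type I interferon response 1 rose and 6 fell, with a median of -0.14, where 6.82% of all tested genes rose and 7.44% fell. The number that fell was 3 without unstimulated library 2 or CpG library 2. Ifit2, an interferon-induced RNA-binding protein, stood at 2303, 1935 and 2059 without CpG and 938, 808 and 775 with it (-1.32 ± 0.25), and Ifit3 went from 3839, 3997 and 3849.7 to 2139.6, 2020.0 and 2003 (-0.92 ± 0.19). Both had their CpG libraries below all unstimulated ones. The single riser was Parp14 (0.55 ± 0.14), an ADP-ribosyltransferase. Ifit1 had 0.48 ± 0.17 at an adjusted p of 0.069, and Isg15 (0.53) and Rsad2 (-0.14) did not pass. With only the CB2-/- libraries in the fit, 6 members rose and 12 fell, Ifit1 (adjusted p = 0.00139) and Cxcl10 (adjusted p = 2.7e-05) being called upward. Of 16 GTPases of the interferon-γ response, which act against intracellular pathogens, Gbp2 (1.30) and Gbp5 (1.98) rose and Ifi47 (-0.92) and Irgm1 (-0.58) fell, and the median was -0.01.

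Antigen presentation rose modestly on the class I side. There 9 of 20 tested genes rose and 1 fell, median 0.26, with 0 fallers without unstimulated library 1 or 2 or CpG library 3. The risers were 6 without unstimulated library 1 or 3 or CpG library 1 or 3, and 8 without unstimulated or CpG library 2. With only the CB2-/- libraries in the fit 9 rose and 5 fell. The nonclassical class I genes H2-Q7 (from 4361, 5731 and 5554 to 11304, 10940.4 and 12559, 1.16 ± 0.16) and H2-Q6 (0.84) and the peptide transporter subunit Tap1 (0.75) were among the risers. H2 genes are near-identical in sequence, so the split of reads between them is uncertain. On the class II side 1 of 11 rose and 4 fell (median -0.34): H2-Ab1, a class II β chain, went from 518, 712 and 759 to 1317, 1358 and 1607 (1.12 ± 0.27), while the peptide-exchange chain H2-DMa fell from 73.5, 69.1 and 71.5 to 23.1, 14 and 19.1 (-1.90 ± 0.45). Of 12 costimulatory and checkpoint molecules, 5 rose and 1 fell (median 0.96). Cd40, the receptor for T cell help, rose from 47.3, 57.3 and 48.4 to 1249, 1239 and 1121 (4.54 ± 0.43), and Cd274, which encodes the checkpoint ligand PD-L1, from 1763, 1784 and 2025 to 7156, 7099 and 6970.4 (1.93 ± 0.20). Icosl, Icam1 and Tnfsf9 rose by 2.30, 1.42 and 1.30. Cd86, a ligand of CD28 on T cells, moved the other way, from 1064, 1009 and 944 to 629, 595 and 498 (-0.81 ± 0.22, adjusted p = 0.0129). That call was lost without unstimulated library 1 (-0.77, adjusted p = 0.0515) or CpG library 3 (-0.71, adjusted p = 0.0735).

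**Figure D3:**
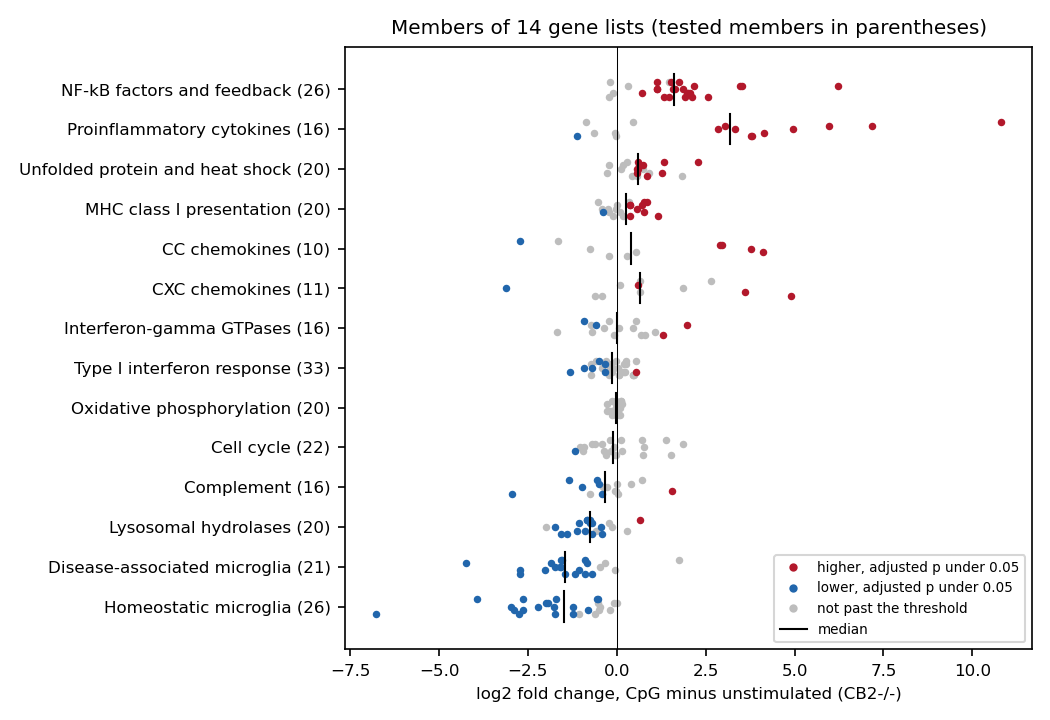
Log2 fold change of CpG over unstimulated CB2-/- microglia (x axis) for each tested member of 14 gene lists (y axis), with the list's median as a bar. The median is 3.19 for proinflammatory cytokines and 1.61 for NF-κB factors and feedback genes, -1.48 for homeostatic genes and -0.14 for the type I interferon response.

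Prostaglandin genes moved in opposite directions. Of 18 enzymes and transporters of nitric oxide, arginine, prostaglandin and itaconate metabolism, 6 rose and 4 fell (median -0.18). Ptgs2, given above, and Ptges, the inducible prostaglandin E synthase (from 333, 498 and 435 to 4154, 3943 and 4379, 3.32 ± 0.48), rose, while Ptgs1 and Hpgd were among the strongest losses and the thromboxane synthase gene Tbxas1 fell (-1.94). Acod1, the itaconate-producing enzyme, rose from 929, 969.6 and 821 to 10779, 10556 and 10417 (3.55 ± 0.33). Nos2, the inducible nitric oxide synthase, was present before CpG at 424, 764 and 822 and reached 4306, 4597 and 5251 (2.87 ± 0.82, adjusted p = 0.0175). Its groups were apart, but the call was lost without unstimulated library 1 (2.57, adjusted p = 0.0816) or without CpG library 3 (2.79, adjusted p = 0.0595), and at a pseudocount of 0.1 (adjusted p = 0.112). The cationic amino acid transporter Slc7a2, which supplies arginine, rose by 2.82, and Arg1 (-0.62) and Odc1 (0.23) did not pass.

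Oxidant and antioxidant genes rose together in 9 of 20 tested members, and 2 fell (median 0.62). Sod2, the mitochondrial superoxide dismutase, rose from 860.1, 898 and 857 to 7941, 8036 and 8413 (3.22 ± 0.13). Cybb, the catalytic subunit of the phagocyte NADPH oxidase, went from 4812, 4373 and 4813 to 12726, 12330.1 and 12405 (1.42 ± 0.11), and its partner Ncf4 (1.22) rose too. The cystine transporter Slc7a11 rose by 1.78 and the selenoenzyme Gpx1 fell (-1.03). Without unstimulated library 2 only 1 member of this list fell. Of 12 iron genes 6 rose and 2 fell (median 0.75): Lcn2, which captures bacterial siderophores, rose from 47.7, 52 and 17.9 to 893, 801 and 954 (4.59 ± 0.58), the divalent metal transporter Slc11a2 by 2.19 and the ferroxidase ceruloplasmin (Cp) by 2.53. Both fallers of the iron list, the ferritin light chain Ftl1 (-0.40) and Aco1 (-0.48), were lost without unstimulated library 2 or 3 or CpG library 1, which left 0 fallers, and 1 was left without unstimulated library 1 or CpG library 3.

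Chaperones rose mildly: 10 of 20 genes of the unfolded protein, integrated stress and heat shock responses passed upward (median 0.60), among them Hsp90aa1 (from 2084, 2387 and 2977 to 5625, 6045 and 6111, 1.27 ± 0.15), Herpud1 (1.33) and Hspa5 (0.85), the chaperone BiP. Glycolysis and glucose uptake gave 3 risers and 1 faller of 20 (median 0.40), led by the regulator Pfkfb3 (1.39 ± 0.18) and the glucose transporter Slc2a1 (0.91 ± 0.22), and 13 risers with only the CB2-/- libraries in the fit. The faller was lost without unstimulated library 2 or 3 or any CpG library. None of 20 nuclear genes of oxidative phosphorylation was called by limma, and 0 had an unadjusted p under 0.05 (median -0.03). Cholesterol genes gave 1 riser and 2 fallers of 25 (median -0.12), the riser being Nr1h3 (1.56), which encodes the sterol receptor LXRα. They gave 1 faller without unstimulated library 1 or 2 or CpG library 1 or 3, and 2 risers without CpG library 3. Matrix metalloproteinases and inhibitors gave 5 risers and 3 fallers of 18 (median 0.27). Mmp9, a gelatinase, rose from 79, 83.1 and 64.4 to 718, 694 and 866 (3.31 ± 0.68) and the membrane-bound Mmp14 from 1402, 1585 and 1432 to 3976, 3624 and 3797 (1.37 ± 0.13), while the urokinase gene Plau (-2.08) and the inhibitor gene Timp2 (-1.45) fell. The collagenase Mmp13 rose by 1.49, a call lost without unstimulated library 1 (1.36, adjusted p = 0.0532), when 3 members of the list rose.

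Genes that mark resting microglia fell broadly. Of 26 tested homeostatic genes 18 fell and the others did not pass, with a median of -1.48. P2ry12, the ADP receptor used as a microglia marker, was already low, at 59.7, 61.3 and 54.1, and fell to 3.45, 6.20 and 15.4 (-2.88 ± 0.49). Mertk, a receptor for apoptotic cells, fell from 789.7, 765 and 762 to 112, 132 and 98.1 (-2.76 ± 0.14), and the secreted Olfml3 from 3532, 3480.3 and 3412 to 895, 867 and 948 (-1.94 ± 0.13). Both had CpG libraries far below the unstimulated ones. Tmem119, a microglia-specific membrane protein, was at 143, 166 and 152 and 75.3, 66.3 and 76.9, groups that did not overlap, but its difference did not pass (-1.07 ± 0.52, adjusted p = 0.211). With only the CB2-/- libraries in the fit it did (adjusted p = 0.00339). Gpr34 (-3.92), P2ry13 (-2.97) and Csf1r (-0.52) fell, whereas Sall1 (-0.50) and Aif1 (-0.09) did not pass. Entpd1, the ATP-hydrolysing CD39, fell from 698, 780.0 and 802 to 179.7, 167 and 141 (-2.22 ± 0.58), a call lost at a pseudocount of 0.1 (adjusted p = 0.178).

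Genes of the disease-associated microglia profile, which in mouse models of neurodegeneration are known to rise as homeostatic genes decline, fell here too. Of 21 tested members 17 fell and 4 did not pass, with a median of -1.46. Trem2, the lipid-sensing receptor on which that profile depends, fell from 3301, 3484 and 3415 to 566, 568 and 516 (-2.63 ± 0.25), and its signalling partner Tyrobp from 3679.7, 4029.6 and 3746 to 1662, 1581 and 1649 (-1.23 ± 0.10). Lpl, the lipoprotein lipase, went from 2587, 2436 and 2570.2 to 583, 585 and 721 (-2.01 ± 0.21), and Clec7a, the β-glucan receptor dectin-1, from 589, 670.3 and 778 to 123, 77.7 and 111 (-2.71 ± 0.56). Cd9 (-1.86), Axl (-1.58), Igf1 (-1.57) and Gpnmb (-1.19) fell, and Itgax (1.74), Cst7 (-0.46), Lgals3 (-0.33) and Csf1 (-0.06) did not pass. The summed level of microglia markers moved the same way, as given above, and its part in these falls was not tested.

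Lysosomal hydrolases were part of the decrease: 14 of 20 tested genes fell and 1 rose (median -0.75). Ctsl, a cathepsin, fell from 15444, 17019 and 15557 to 5473, 5458 and 5289 (-1.56 ± 0.09), and the lipase Lipa fell from 3583, 3656 and 3588 to 1444, 1303 and 1335 (-1.41 ± 0.11). The groups did not overlap for either of these. Ctsh, an aminopeptidase cathepsin, was the riser (0.65 ± 0.13). Complement genes gave 6 fallers and 1 riser of 16 (median -0.33), and C3, the central component, rose from 6219, 6433 and 5989.8 to 17563, 17472 and 19456 (1.55 ± 0.13). Fc, scavenger and CD300 receptors gave 5 risers and 8 fallers of 19 (median -0.48). Beside Cd300e, the bacteria-binding scavenger receptor Marco rose from 60.2, 56.2 and 60.2 to 489, 409 and 471 (2.93 ± 0.19), and Cd300lb fell from 1064, 1035 and 948 to 109, 119 and 119.9 (-3.12 ± 0.32) as did the mannose receptor gene Mrc1 (-1.63).

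Most genes near cannabinoid signalling did not pass, while purinergic genes moved in both directions. In the endocannabinoid list 1 of 14 rose and 3 fell (median -0.30), where 6.82% of all tested genes rose and 7.44% fell. Gpr18, a receptor proposed to bind cannabinoid-like lipids, rose from 19.4, 21.1 and 37.8 to 344, 373 and 425 (3.87 ± 0.33), and Abhd12, a lipid hydrolase, fell from 3914, 3877 and 3620.1 to 1347, 1534 and 1356 (-1.43 ± 0.13). Both genes had groups that were apart, while Mgll, the main 2-arachidonoylglycerol hydrolase, had 2.77 at an adjusted p of 0.0592. Purinergic receptors and ectonucleotidases gave 5 risers and 5 fallers of 15 (median -0.53). Adora2a, an adenosine receptor, rose from 3.10, 3.99 and 4.84 to 56.1, 74 and 62 (3.71 ± 0.75), and Nt5e, which makes adenosine from AMP, fell from 254, 219 and 195 to 9.37, 16.5 and 17.7 (-3.89 ± 0.71). The TNF superfamily gave 6 risers and 3 fallers of 17 (median 0.01), with the TNF receptor gene Tnfrsf1b from 3881, 4321 and 4135 to 19675, 18991 and 19254 (2.23 ± 0.14) and the B cell factor Tnfsf13b at -2.17. Of 15 growth and trophic factors 5 fell and the others did not pass (median 0.07), Hgf (-3.33) and Gas6 (-1.81) among them.

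The CpG and PolyI:C libraries of the same genotype were compared directly, without the shared controls. The second PolyI:C library stood apart: the RNAs Gm19220, Gm26822 and Grip2 took 50.8% of its values, against 0.687 and 3.35% in the other PolyI:C libraries, and its summed value was 14151982 against 6764330 and 6961811. CpG gave higher levels than PolyI:C for 816 genes (5.56%) and lower levels for 938 (6.39%), and with quantile scaling for 1001 and 917. Without the second PolyI:C library the counts were 661 and 740, and all 16 genes named for this comparison were still called. Il12b was at 28.4, 12.2 and 10.2 with PolyI:C, far below its CpG values (7.23 ± 0.59, adjusted p = 5.71e-09). Il10 was at 0, 7.30 and 25.4 with PolyI:C (6.66 ± 0.77), Csf3 at 21, 7.30 and 8.33 (4.33 ± 0.62), Slc13a3 at 52.6, 122 and 41.2 (4.84 ± 0.50) and Cd300e at 37.8, 19.5 and 18 (4.16 ± 0.61). Adamts4 (5.53), Shisa3 (4.47) and Rbpsuh-rs3 (5.13) complete the 8 largest positive differences.

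PolyI:C gave the higher levels in interferon-induced genes. Ifit2 stood at 7215, 7674 and 7959 with PolyI:C (-3.18 ± 0.25), above both CpG and unstimulated libraries. Slfn4, an interferon-inducible Schlafen gene, was at 89.2, 92 and 116 with CpG and 1719, 1763 and 1594 with PolyI:C (-4.09 ± 0.86), and Cxcl11 at 20.1, 5.95 and 12.8 and 170.4, 188 and 195 (-3.87 ± 0.62). In the interferon list 28 of 33 members were lower with CpG (median -1.05 beside -0.03 over all genes), as were 13 of 16 GTPases (-1.58) and 11 of 20 class I genes (-0.44). NF-κB and feedback genes were higher with CpG in 19 of 26 (0.88). Without the second PolyI:C library these counts were 24 of 33, 13 of 16, 8 of 20 and 18 of 26 in the same order. Slco2b1, at 274, 419 and 267 with PolyI:C, Rgs2, Ptgs1, Sirpb1c and the efflux pump gene Abcb1a were lower with CpG by log2 differences of -4.72, -3.46, -3.38, -3.31 and -3.22. The Abcb1a call was lost at a pseudocount of 0.1.

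The CpG libraries were also compared with those given LPS and interferon-γ. CpG gave higher levels for 560 genes (3.82%) and lower levels for 933 (6.36%), 10.2% in all, but quantile scaling turned this split to 893 and 810. Without LPS library 2, CpG library 2 or CpG library 3 the higher count was 368, 370 and 373. Cxcl9, an interferon-γ-induced chemokine, held 9.87, 5.84 and 14.8 with CpG and 7727, 7982 and 8169 with LPS and interferon-γ (-9.56 ± 0.93). Iigp1, an immunity-related GTPase, showed the same order, at 67.2, 41.8 and 49.2 and 5187, 5049.9 and 5076 (-6.60 ± 0.54). In the list of such GTPases 16 of 16 were lower with CpG (median -4.11 beside -0.02 over all genes), as were 20 of 20 class I genes (-1.34) and 32 of 33 type I interferon response genes (-1.39). Tgtp1 (-9.65), Serpina3f (-8.69), Clic5 (-8.54), Serpina3g (-7.70), Cxcl11 (-7.27) and Gbp8 (-6.44) had the other large negative differences, and reads of the Tgtp, Serpina3 and Gbp families may be split between members.

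Some genes were higher with CpG than with LPS and interferon-γ. Il10 was at 41.8, 40.3 and 22.1 with the latter against 631, 609 and 593 with CpG (4.15 ± 0.77), Slc13a3 at 140.1, 181 and 166 (3.52 ± 0.50) and Cd300e at 35.6, 52.5 and 63.1 (3.15 ± 0.61). Lox was at 338, 321 and 329 (3.03 ± 0.70), and Anxa1, the glucocorticoid-induced annexin A1, at 932, 968 and 874 with CpG and 163, 179 and 122 with LPS and interferon-γ (2.59 ± 0.22). Il12b stood at 452, 473 and 536 with LPS and interferon-γ, below CpG (2.33 ± 0.59). Adamts4 (3.27), Shisa3 (3.10) and Mmp9 (2.44) were also higher with CpG. At a pseudocount of 0.1 the calls of Il10, Adamts4, Shisa3 and Mmp9 were lost, and that of Mmp9 was lost without LPS library 1 or 2 or any CpG library (adjusted p from 0.0503 to 0.0718). NF-κB genes were mixed here, 4 of 26 higher and 5 lower with CpG.

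**Figure D4:**
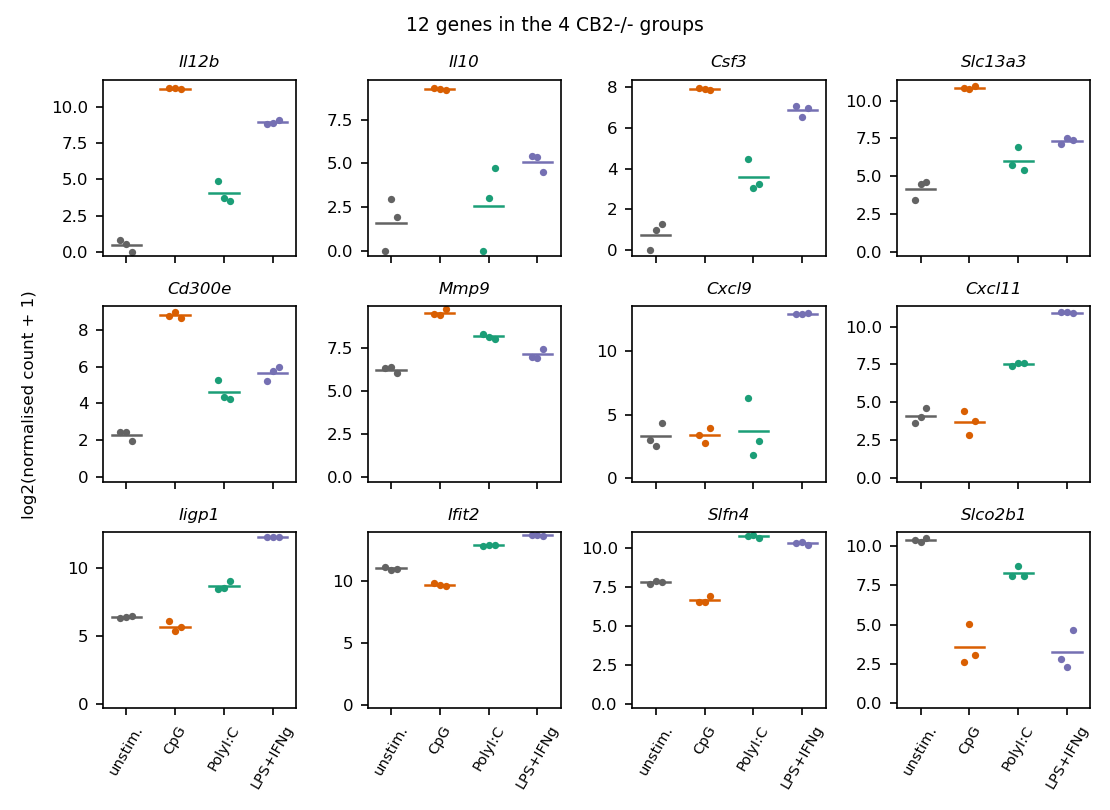
Log2(normalised count + 1) (y axis) in each library of the 4 CB2-/- groups (x axis: unstimulated, CpG, PolyI:C, LPS with interferon-γ) for 12 named genes, with group means as lines. Il12b, Il10, Slc13a3 and Cd300e are highest in CpG libraries, Cxcl9 and Iigp1 in LPS with interferon-γ, where Cxcl9 reaches 8169 normalised counts.

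The CpG response of CB2-/- cells was then set against that of wild type by the difference of both log2 changes. Genotype and library-number series cannot be told apart for the stimulated libraries. The wild-type libraries listed here all carry the same series of numbers, and all CB2-/- libraries another. Unstimulated wild-type replicates 4 to 6 carry the series of the CB2-/- libraries and are not listed. They were in the fit, where the series term rests on the wild-type controls of both series. The difference was positive for 896 genes (6.11%) and negative for 830 (5.66%), 11.8% of those tested, and 880 and 911 with quantile scaling, which moved the median of all genes by -0.116. Of the 1000 genes that rose with CpG in CB2-/- libraries, 320 (32.0%) differed from wild type, 182 rising less far and 138 further, of which 42 had a wild-type change of the same sign. Of the 1092 that fell, 310 (28.4%) differed, 205 falling less far and 105 further, 37 of these with a wild-type change of the same sign. The CB2-/- change that chose these genes is also part of the difference. These shares and counts are therefore tied to the choice and do not measure how much of the response depends on genotype. Between the first wild-type CpG library and the other 2 there were gaps for some genes, for example 156, 916 and 903 for Il12b. The first wild-type CpG library also had the fewest genes above 0 of all 27 libraries, 13628. Without that library the genotype difference was positive for 868 genes and negative for 812.

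**Figure D5:**
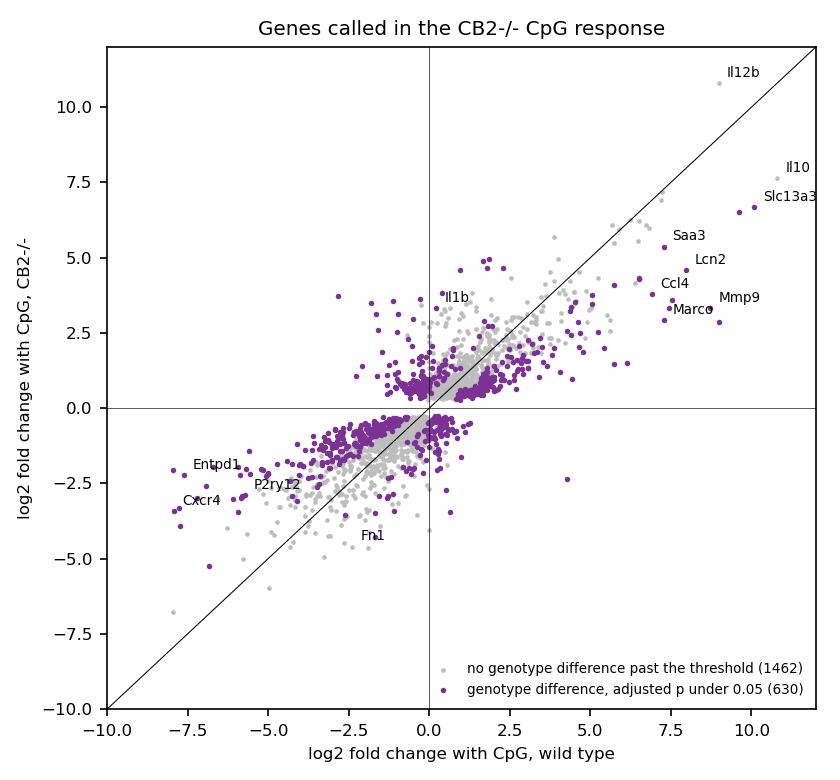
Log2 fold change with CpG in wild-type (x axis) and CB2-/- microglia (y axis) for the 2092 genes called in CB2-/-, with the line of equal change. The 630 genes whose responses differed are purple and the other 1462 grey; Mmp9 lies below the line at 8.73 in wild type and 3.31 in CB2-/-.

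Genes that fell steeply in wild type and less in CB2-/- were among the largest positive differences. Cxcr4 went from 1664, 1441 and 1464 to 1.18, 14 and 6.64 in wild type (log2 change -7.92), against -3.42 in CB2-/- libraries, a difference of 4.49 ± 0.57. Entpd1 went from 944, 1103 and 1126 to 0, 8.35 and 16 in wild type, with a difference of 5.38 ± 0.82. Both genes stayed far higher in CB2-/- libraries with CpG. Cytip (5.88), Cdk5r1 (5.79), Amz1 (4.78), Myom1 (4.77), Zbtb42 (4.44) and the checkpoint receptor gene Havcr2 (4.59) complete this side, the last with 3.01 without wild-type CpG library 1. At a pseudocount of 10 the difference was smaller for Cytip (3.37), Amz1 (3.02) and Zbtb42 (2.21), all still called. At 0.1 that of Zbtb42 was 6.66, so the order by size depends on the pseudocount. Tlr9 fell in wild type from 359, 439 and 436 to 65.4, 49.4 and 47.8 (-2.91), and the difference was 2.99 ± 0.30 (adjusted p = 4.15e-07). Il1b was at 4712, 2831 and 3782 and 1919, 6384 and 6425 in wild type (0.21), a difference of 3.12 ± 0.48. Its first wild-type CpG library lay below all wild-type controls and the others above them, so the small wild-type change averages opposite directions. P2ry12 fell further in wild type (-5.72, difference 2.84 ± 0.70), and 11 of 26 homeostatic genes had positive differences and 1 a negative one (median 0.92 beside 0.10 over all genes). Cholesterol genes were positive in 9 of 25 (0.90).

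Genes that rose more in wild type formed the other side. Marco went from 67.7, 52.9 and 58.8 to 11726, 8941 and 8192 in wild type (7.30), against 2.93 in CB2-/- libraries, a difference of -4.37 ± 0.26. Mmp9 went from 0, 10.8 and 11 to 949, 3344 and 3403 (8.73, difference -5.41 ± 0.95), with the first wild-type CpG library below the others. Wild-type CpG libraries of both genes lay above the CB2-/- ones. Draxin (-6.14), Prss46 (-6.12), Ndrg1 (-5.42), Mmp13 (-4.65), Ccl7 (-4.57) and the cholesterol 25-hydroxylase gene Ch25h (-4.25) complete it. At a pseudocount of 10 Prss46 had -3.74 and was still called. The calls of Prss46 (-3.15, adjusted p = 0.288), Ndrg1 (-2.44, adjusted p = 0.495) and Mmp9 (-3.37, adjusted p = 0.146) were lost without the number-series term. Without that term the unstimulated wild-type libraries of the other number series also served as controls. The Ccl7 call was lost without wild-type unstimulated library 1 (-3.54, adjusted p = 0.0682). Tnf (5.06 in wild type, difference -1.29 ± 0.29), Ccl4 (6.92, -3.14 ± 0.30), Lcn2 (7.98, -3.39 ± 0.83) and Slc13a3 (10.10, -3.41 ± 0.71) also rose more in wild type. The difference was negative for 5 of 10 CC chemokines and positive for 1 (median -1.33). It was negative for 5 of 18 metalloproteinase genes, and for 5.66% of all tested genes. A negative difference can also come from a gene that fell further in CB2-/- libraries. Il12b (8.98 in wild type, difference 1.81 ± 0.83, adjusted p = 0.171) and Il6 (6.82, -0.84 ± 0.94, adjusted p = 0.643) had differences that did not pass, which does not show equal responses. In the authors' batch-corrected table most of these differences were smaller by more than 1.5 times but called, for example 2.56 for Cxcr4 and -3.01 for Mmp9, and Ndrg1 was not called (-1.68, adjusted p = 0.0734).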

How the data were processed

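RNA was sequenced as 75 bp single-end reads. The labels describe a TruSeq protocol and a SMART-Seq2 low-input protocol but do not assign libraries to them. The submitters' processing notes name CASAVA 1.8, kallisto and DESeq2 and give neither role nor order for them. A genome build is not given in the sources used here. Values deposited by the authors are normalised counts, a signal that is never negative and not whole. Low values were whole multiples of the smallest step in 54.5 to 60.6% of cases per library (tolerance 0.01), so reads were not recovered, no count test was run and read depth is unknown. The authors' batch-corrected log2 table served only as an alternative; its removed batches are not given.

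Groups come from the titles. Of 23995 genes, the 14668 that reached 10 in 3 or more of the 27 libraries entered 1 limma 3.58.1 fit in R 4.3.3 on log2(value + 1) with group and library-number series as terms (lmFit, contrasts.fit, eBayes with trend, 18 residual degrees of freedom), two-sided, Benjamini-Hochberg, called at an adjusted p under 0.05. Replicate libraries were compared and none were identical.

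Named genes were the 15 highest and 15 lowest log2 changes (8 and 8 in the other comparisons) among called genes with a mean of at least 100, no overlap between groups and no gene-model name, besides a panel of 20 genes and members of 30 function lists and 8 cell type lists. Genes led by absolute level, Fth1, Apoe, Ctsb, Ccl5 and Ptgs2, the RNAs Gm19220, Gm26822 and Grip2, and the 4 promoters shown were picked after their values were seen. The members and lists were chosen with earlier results of these data known. Lists are described by counts and medians and were not tested. GENCODE M21 (GRCm38) matched 23950 gene identifiers and gave the positions, and promoters are from RefSeq GRCm38.p6. Reads of multigene families (Gbp, Slfn, H2, Serpina3, Ccl and Tgtp genes) may be split between members. Figures used Python 3.11.15, pandas 2.3.3 and matplotlib 3.10.9. Alternatives were other pseudocounts, filters, scaling, libraries in the fit, weights, variance models, no series term and the batch-corrected input; single libraries were also left out.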

Additional observations from a re-analysis of the deposited data

Results flagged for a closer look

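The CpG responses of CB2-/- and wild-type microglia differed beyond the threshold, by limma's test of the difference of both log2 changes, for the genes given here, which are those named for that comparison and those of the panel that passed. Genotype and library-number series cannot be told apart here. Positive differences, CB2-/- minus wild type, were 5.88 for Cytip, 5.79 for Cdk5r1, 5.38 for Entpd1, 4.78 for Amz1, 4.77 for Myom1, 4.59 for Havcr2, 4.49 for Cxcr4 and 4.44 for Zbtb42. Negative ones were -6.14 for Draxin, -6.12 for Prss46, -5.42 for Ndrg1, -5.41 for Mmp9, -4.65 for Mmp13, -4.57 for Ccl7, -4.37 for Marco and -4.25 for Ch25h. In the panel the difference was 5.36 for Cnr2, 3.12 for Il1b, 2.99 for Tlr9, 2.84 for P2ry12 and 1.05 for Cd86, and -1.29 for Tnf, -3.14 for Ccl4, -3.39 for Lcn2 and -3.41 for Slc13a3. The 5.36 of Cnr2, the targeted gene, is a difference of log2 changes and not a level, so it cannot check the deletion. Cnr2 was not called in the CB2-/- response, and its log2 change with CpG was more negative in wild type.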

How the results depend on the processing

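Counts of called genes depended on the libraries in the fit and on library weights. For the CpG response, 1000 genes higher and 1092 lower became 1656 and 1685 with only the CB2-/- libraries in the fit, 1585 and 1714 with only the 6 compared libraries, and 2048 and 2110 with library weights. Against PolyI:C, 816 and 938 became 1397 and 1722 with only the CB2-/- libraries, 1375 and 1587 with weights, and 1259 and 1673 in the batch-corrected table. Against LPS and interferon-γ, 560 and 933 became 1034 and 1469, 1676 and 2047, and 931 and 1416 in the same order, and quantile scaling gave 893 higher. For the genotype difference, weights gave 1508 and 1459 in place of 896 and 830. Leaving out 1 library gave 772 to 857 higher and 847 to 887 lower for the CpG response, 556 to 725 and 692 to 805 against PolyI:C, 368 to 391 and 733 to 778 against LPS and interferon-γ, and 670 to 1227 and 626 to 940 for the genotype difference. Other counts stayed within 1.5 times of these, and the cause of the shifts was not tested.

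Of the 2092 genes called in the CpG response, none changed sign under any alternative run on it. Among 274 called named or listed genes, 46 lost their call without some library and 33 under another alternative. Tlr9, not called, went from 0.08 to -0.026 without unstimulated library 3, and its changes without 1 library ran from -0.026 to 0.19. No paired analysis was possible because replicate numbers were given in accession order and the titles share no number between groups. Depth is unknown, low genes rest on few reads, and 3 libraries per group leave small changes undetected.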

Other observations

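In the cell cycle and DNA replication list 1 of 22 tested genes fell, the replication helicase subunit Mcm6 (-1.17), and the median was -0.12. Cytosolic ribosomal proteins gave 5 fallers of 26, where 7.44% of all tested genes fell (median -0.18), including Rps19 (-0.46) and Rps4x (-0.39), with 3 fallers without unstimulated library 1 or 2 or CpG library 2 or 3, and 10 with only the CB2-/- libraries in the fit. Mitochondrially encoded transcripts gave 1 faller of 13 (median -0.35), 0 without unstimulated library 1 or 2 or CpG library 1 or 2, 2 without CpG library 3 and 7 with library weights, and their share of all values was 0.575 to 0.964% in the 6 libraries.

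Among the microglia and macrophage markers 8 of 12 fell and 1, the Fc receptor chain Fcer1g (1.05), rose. Markers of other cell types were mostly not called: 1 of 10 for astrocytes (Glul, -0.65, lost without unstimulated library 3 at -0.56, adjusted p = 0.0674, limma), 1 of 11 for fibroblasts and meninges (Fn1), 2 of 9 for the oligodendrocyte lineage (Cspg4, -3.72, and Mbp, -1.53) and 1 of 5 for endothelial cells and pericytes (Flt1, -2.15), all lower with CpG. Without Fn1 the fibroblast markers summed to 103 to 175 without CpG and 111 to 123 with it, and without Cspg4 the oligodendrocyte markers to 1218 to 1277 and 742 to 774. Neuron markers summed to 29.1 to 43.8 and 20.1 to 28.6, endothelial markers to 458 to 657 and 317 to 437, and the 1 tested lymphocyte marker, Cd4, had a log2 change of -2.45 at an adjusted p of 0.099. None of the 4 tested neuron markers and 5 monocyte and neutrophil markers was called by limma, and 0 and 1 of them had an unadjusted p under 0.05.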
